A study of Drosophila melanogaster with 2 samples.

Results

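The genes described here are 10 components of the Hippo pathway and of the Mob family of kinase regulators in the fruit fly Drosophila melanogaster. They are the 4 Mob genes Mob2, mats, Mob3 and Mob4, the kinase genes trc, wts and hpo, the scaffold genes fry and sav, and yki, which encodes a transcriptional co-activator. They make up 10 of the 13968 protein-coding genes annotated on the chromosome arms. The set was chosen from earlier results on these data, by the signal of 1 peak in Mob2, and the other genes were added as its family and pathway. The Mob2 signal is therefore given as a description, with no test. Each gene was taken with 10000 bp on either side. These windows held 122 of the 30000 candidate summits called on the replicates together and 22 of the 4105 summits kept by the authors' reproducibility threshold.

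The experiment measured where Kah (Kahuli), a DNA-binding protein with zinc fingers related to Snail, was bound in the genome. Chromatin immunoprecipitation with sequencing (ChIP-seq) recovers DNA fragments held by a protein and counts where they come from. There was 1 group of samples with 2 biological replicates, both whole embryos aged 0 to 16 h, of pooled male and female sex, from the transgenic strain kah-GFP, which stably expresses Kah with green fluorescent protein fused to its C terminus. Chromatin was sonicated to 200 to 800 bp. The labels give kah as the antibody and transcription factor ChIP-seq as the assay, while a free-text line of both samples calls them an input control, and the lists were read by the assay label. Per the deposited file listing, both replicates were set against the same control alignment, and no untagged line or second condition entered any comparison. All cell types of the embryo were pooled, so strong occupancy in few cells and weak occupancy in many cannot be told apart.

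In the Hippo pathway, the kinase Hpo with its scaffold Sav activates the kinase Wts, which works together with the Mob protein Mats. Wts phosphorylates Yki and keeps it out of the nucleus, where Yki with the DNA-binding protein Scalloped turns on genes of growth and survival. Trc is the other kinase of the same NDR and LATS family. It acts with the large protein Fry and with Mob2 in shaping wing hairs and dendrites of sensory neurons. Mob4 belongs to the STRIPAK complex, a phosphatase and kinase assembly that opposes Hippo signalling.

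Each listed summit carried a signal from the authors' peak caller, on that caller's own scale, which can be compared within a list. The median candidate stood at 30.4 in replicate 1, 33.9 in replicate 2 and 58.1 in the pooled list, each of 30000 candidates. IDR, the irreproducible discovery rate, kept the 4105 strongest pooled summits, with a median of 233. The lowest signal kept was 149.7 and the highest left out was 149.6. Among the genes described here, the lowest kept was 153 and the highest left out was 146. A candidate was counted as present in a replicate when that replicate's list had a summit within 100 bp. Over IDR summits present in both replicates, the log2 of replicate 2 over replicate 1 was 0.07 at the median with an SD of 0.57, a factor of 1.49, and this SD serves below as the replicate error (n = 3902 summits).

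The sequence under the Mob2 peak is shown first, because the set of genes was built around this peak. It covers 300 bp of the plus strand of dm6, chr3L:11553345-11553644, around the summit at 11553495, and lies in an intron of 2 Mob2 transcripts, 383 bp upstream of the start site of the transcript Mob2-RA. Capitals mark CAGCTG and CACTTG, which are E-boxes, and GAGAGA, the binding word of the GAGA factor, on either strand.
Mob2 peak: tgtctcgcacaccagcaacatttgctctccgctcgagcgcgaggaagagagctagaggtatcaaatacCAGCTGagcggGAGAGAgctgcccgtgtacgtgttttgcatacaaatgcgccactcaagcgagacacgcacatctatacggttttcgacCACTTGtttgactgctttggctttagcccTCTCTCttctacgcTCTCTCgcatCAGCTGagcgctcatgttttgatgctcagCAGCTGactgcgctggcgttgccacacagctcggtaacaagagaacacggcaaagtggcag
It held 1 copy of CACTTG, starting 7 bp after the summit, 3 copies of CAGCTG and 3 copies of GAGAGA. The E-box bound by Snail-family proteins, CAGGTG, did not occur in it. CACTTG on either strand occurred in 24.6% of the 300 bp windows of all IDR summits and CAGGTG in 17.4%. Windows with 3 or more copies of CAGCTG numbered 11 (0.268%), and 6.21% held 3 or more copies of GAGAGA. The count of CAGCTG was added after the sequence had been seen.

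The next sequences are 61 bp of the plus strand of dm6 with the summit at base 31, shown because they hold the words that recurred at the other genes. Capitals mark CAGGTG and, where it continues, the longer site of the Snail family that also contains the word ACAGGT and the word AACAGG. They also mark the E-box CACTTG and the core of the DNA replication-related element, ATCGAT. All were searched on both strands. The peak at fry lies at chr3L:9643969-9644029. It and a peak of the wts window (chr3R:30782012-30782072) held the joined Snail-family words, as did both hpo summits, whose sequence is not shown.
fry peak: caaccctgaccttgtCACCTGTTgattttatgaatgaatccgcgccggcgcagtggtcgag
wts window peak in zfh1: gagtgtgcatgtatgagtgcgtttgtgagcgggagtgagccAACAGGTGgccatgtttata
The trc promoter peak (chr3L:19834332-19834392), the peak of the sav window beside p53 (chr3R:23054110-23054170) and the weaker candidate between sav and Ublcp1 (chr3R:23061442-23061502) each held 2 copies of ATCGAT.
trc promoter peak: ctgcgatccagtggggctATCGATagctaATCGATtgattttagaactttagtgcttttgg
sav window peak beside p53: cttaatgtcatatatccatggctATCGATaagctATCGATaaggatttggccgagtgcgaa
sav promoter candidate: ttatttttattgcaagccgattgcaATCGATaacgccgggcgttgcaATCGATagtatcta
Within 50 bp of the summit, 2 or more copies of ATCGAT occurred at 19 of the 4105 IDR summits (0.463%), and 2 of these 19 lay in the windows described here. This copy count, too, was added after the sequences had been seen.

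Mob2 (FBgn0259481; chromosome arm 3L, 11522757 to 11562233, minus strand; 39477 bp) held the strongest peak of the set. Its summit at 11553495 had a signal of 5020 in the pooled list, 2016 in replicate 1 and 2991 in replicate 2. It ranked 2 of 30000 in the pooled list, 4 in replicate 1 and 2 in replicate 2. The replicate summits lay 7 bp and 1 bp from the pooled one. Its signal was 86.5 times the median candidate in the pooled list, 66.3 times in replicate 1 and 88.3 times in replicate 2. The replicates differed by 0.57 on the log2 scale, 0.879 SD from the centre of all IDR summits. The margin over the next candidate in rank was small, 1.05-fold in the pooled list, 1.01-fold in replicate 1 and 1.11-fold in replicate 2. The peak interval, 11552967 to 11553793, was 827 bp wide against a median of 424 bp, and 24 IDR peaks (0.585%) were at least as wide.

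Mob2 has 5 protein-coding transcripts from 4 start sites, and the strongest peak sat beside only one of them. Mob2-RA starts at 11553112, 383 bp downstream of the summit in the direction of transcription. At the start of Mob2-RC (11562233), the nearest candidate was an IDR summit at 321 bp, with 215 in the pooled list and 154 in replicate 1. The closest replicate 2 candidate to it lay 128 bp away and had 67.3. At the start shared by Mob2-RB and Mob2-RE (11534478), a candidate at 113 bp had 100.2 in the pooled list, 56.2 in replicate 1 and 68.4 in replicate 2, below the IDR threshold. Mob2-RD (11558739) had no candidate of the pooled list within 500 bp. The highest of these signals, at Mob2-RA, is the one that chose the set. The transcripts differ in their coding sequence as well, which is 2184 bp in Mob2-RA, 1698 bp in Mob2-RD, 1611 bp in Mob2-RB and Mob2-RE and 1293 bp in Mob2-RC.

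**Figure D1:**
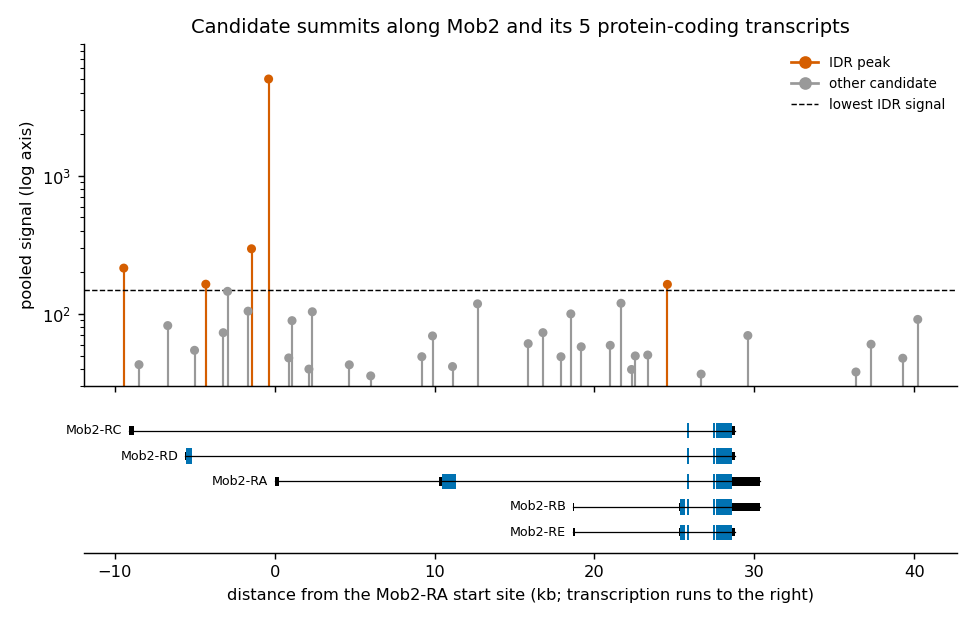
Pooled signal (log axis, caller's scale) of each candidate summit against its distance from the Mob2-RA start site in kb, above the exons of the 5 Mob2 transcripts (blue, coding; black, untranslated). Orange points are IDR summits, grey points other candidates, and the dashed line is the lowest IDR signal of 149.7. The peak of 5020 stands just upstream of Mob2-RA, with 4 weaker IDR summits along the window.

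The 4 other IDR summits of the Mob2 window were far weaker. The summit at 11554565, in the intron 1453 bp upstream of Mob2-RA, had 297 in the pooled list, 172 in replicate 1 and 127 in replicate 2. The main peak exceeded it 16.9-fold in the pooled list, 11.7-fold in replicate 1 and 23.5-fold in replicate 2. A summit at 11557423, 1316 bp inside Mob2-RD, had 164 in the pooled list, 52.6 in replicate 1 and 120 in replicate 2, so its replicates differed by 1.97 SD. The summit at 11528551, in an intron near the 3′ end of the gene, had 164, 76.3 and 83.8 in the pooled, replicate 1 and replicate 2 lists. The summit of 215 already described lay outside the gene, in an intron of the neighbour CG7394 and 119 bp from that gene's start site. A further 32 candidates of the window were not IDR summits. They ran from 35.7 to 146 with a median of 58.6, close to the pooled list's median of 58.1, and 28 of them lay inside Mob2. The strongest of them, at 11556062, had 146 in the pooled list, 83.8 in replicate 1 and 62.9 in replicate 2.

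**Figure D2:**
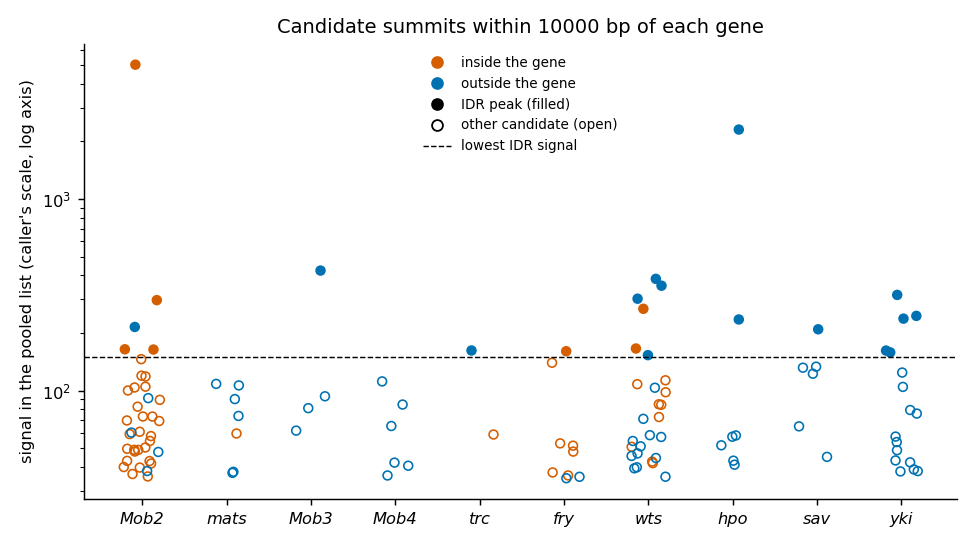
Signal in the pooled list (log axis, caller's scale) of the 122 candidate summits within 10000 bp of the 10 genes. Filled points are the 22 IDR summits, open points the other 100 candidates, orange inside the gene and blue outside it, and the dashed line is the lowest IDR signal of 149.7. Mob2 has the highest point at 5020, and the second highest, 2302 in the hpo window, lies outside hpo.

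None of the other 3 Mob genes had an IDR summit inside the gene or within 500 bp of a start site. At mats (FBgn0038965; 3R, 22421161 to 22423302, plus strand), whose product activates Wts, the 7 candidates ran from 37.3 to 108. The start site of mats lies 93 bp from that of Nop56, a gene of ribosomal RNA modification, transcribed the other way. A candidate at 22421058, 103 bp from the mats start and 10 bp inside Nop56, had 106 in the pooled list, 26.5 in replicate 1 and 79.0 in replicate 2. Its replicates differed by 2.63 SD of the IDR ratio, with the higher value in replicate 2. A second candidate, inside mats at 470 bp from its other start site, had 60.4 in the pooled list and 40.2 in replicate 2, and no summit within 100 bp in replicate 1. The 61 bp around the first of these held CACTTG on the opposite strand, printed in capitals (dm6, plus strand, chr3R:22421028-22421088).
mats promoter candidate: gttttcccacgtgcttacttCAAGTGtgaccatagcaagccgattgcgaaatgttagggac

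Mob4 and Mob3 were likewise without a peak of their own. Mob4 (FBgn0259483; 2R, 6695114 to 6696661, minus strand) starts 78 bp from Rab2, the gene of a membrane traffic GTPase. A candidate 102 bp from the Mob4 start had 112 in the pooled list, 31.1 in replicate 1 and 86.7 in replicate 2, 2.48 SD apart and again higher in replicate 2. The other 5 Mob4 candidates were at or below 84.6, and 2 of the 6 were present in both replicates. Around Mob3 (FBgn0259482; 2L, 10265336 to 10266570, plus strand) no candidate of the pooled list lay within 500 bp of the start or inside the gene. The window held 1 IDR summit, outside Mob3. The remaining 3 candidates of the Mob3 window had 61.9 to 93.5, and all 3 were present in both replicates.

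The kinase gene trc (FBgn0003744; 3L, 19830864 to 19834304, minus strand) had 1 IDR summit, 58 bp upstream of its start site. This summit, at 19834362, had 162 in the pooled list, 68.2 in replicate 1 and 91.6 in replicate 2, and the replicates lay 0.626 SD from the centre. CG32221 starts 366 bp from trc on the other strand, so the peak is within 500 bp of both genes' start sites but nearer to trc. The only other candidate of the window, inside trc at 831 bp, had 59.6 in the pooled list and 40.0 in replicate 2, and was not matched in replicate 1. At the gene fry, which is FBgn0016081 (3L, 9631834 to 9679103, minus strand; 47270 bp), whose product works with Trc, 9 candidates were listed. The 1 IDR summit, at 9643999, had 161 in the pooled list, 58.3 in replicate 1 and 97.1 in replicate 2. It stood in an intron 31492 bp from the nearest fry start site and 110 bp upstream of CNMaR, a neuropeptide receptor gene nested in fry. Near the 5′ end of fry, a candidate at 749 bp had 140 in the pooled list, 52.1 in replicate 1 and 87.9 in replicate 2. The candidate 8 bp from the fry start had 48.1, 26.1 and 23.8 in the pooled, replicate 1 and replicate 2 lists, below the pooled median.

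The kinase gene wts (FBgn0011739; 3R, 30789625 to 30806619, minus strand; 16995 bp) had 6 IDR summits in its window, 2 of them inside the gene. No candidate of the pooled list lay within 500 bp of its start site. The stronger internal summit, at 30805950 in the intron 669 bp downstream of the start, had 267 in the pooled list, 120 in replicate 1 and 144 in replicate 2. The weaker, at 30796938 in an intron 9681 bp downstream, had 166, 88.8 and 80.5 in the pooled, replicate 1 and replicate 2 lists. Both internal summits had replicate ratios within 1 SD of the centre. The other 4 lay in neighbouring genes. A pair 243 bp apart fell in introns of zfh1, a transcription factor gene of the mesoderm, overlapped there by an antisense RNA gene. The one at 30782042 had 353 in the pooled list, 186 in replicate 1 and 163 in replicate 2, and the one at 30781799 had 302 in the pooled list and 144 in replicate 2. For the latter the closest replicate 1 summit was 254 bp away, the summit already counted for its partner. In cindr, the gene of an adaptor protein of the cytoskeleton, a summit 37 bp inside the gene had 153 in the pooled list, 48.1 in replicate 1 and 108 in replicate 2. An intronic cindr summit at 30814022 had 383, 176 and 204 in the same order. The 21 other candidates of the wts window ran from 35.6 to 113, and 9 of them were present in both replicates.

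For hpo (FBgn0261456; 2R, 19493996 to 19496856, minus strand), the most upstream kinase of the core, 2 IDR summits were listed. The summit at 19496910, 54 bp upstream of the hpo start, had 235 in the pooled list, 103 in replicate 1 and 131 in replicate 2. The summit at 19491902 had 2302 in the pooled list, 1196 in replicate 1 and 1107 in replicate 2 and ranked 16 in the pooled list. It lay 4954 bp downstream of the hpo start and 56 bp from the start of Oseg6, the gene of a protein of ciliary transport. The other 5 candidates of the hpo window were at or below 58.4. At sav (FBgn0053193; 3R, 23058609 to 23061304, minus strand), the scaffold partner of Hpo, the 1 IDR summit was 7164 bp from the start site and 58 bp from that of p53, in an exon of an antisense RNA. It had 209 in the pooled list, 132 in replicate 1 and 78.3 in replicate 2, and was one of 6 member summits higher in replicate 1. Between sav and Ublcp1, which start 189 bp apart, a candidate 168 bp from sav and 21 bp from Ublcp1 had 123 in the pooled list, 69.6 in replicate 1 and 30.5 in replicate 2. It was below the IDR threshold and its replicate ratio stood at -2.20 SD.

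The window of yki (FBgn0034970; 2R, 24065975 to 24068485, minus strand) held 5 IDR summits, all outside yki and each within 500 bp of another gene's start site. The nearest, at 24069045, was 560 bp upstream of yki and 5 bp upstream of the nearest start site of Gpat4, a lipid synthesis gene on the other strand. Another start site of Gpat4 lies 272 bp from yki, so the summit falls in a 5′ UTR of Gpat4. It had 162 in the pooled list, 56.3 in replicate 1 and 102 in replicate 2. Summits at RpL39 and RpL12, genes of ribosomal proteins, had 316 and 246 in the pooled list. At RpL39 the replicates had 141 and 182, and at RpL12 they had 121 and 131. At eEF5, a translation factor gene, the summit had 158 in the pooled list, 53.1 in replicate 1 and 107 in replicate 2. Beside Mlp60A, which encodes a muscle LIM protein, it had 238, 97.7 and 140 in the same order. All 5 were higher in replicate 2. No candidate of the pooled list lay inside yki or within 500 bp of its start. When the strongest candidates of replicate 1 stood in for the IDR list, a summit lay within 500 bp of the yki start. The position and signal of that replicate 1 summit are not reported here.

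The signals within 500 bp of a gene's own start sites could be ordered, although the choice of genes fixes the place of Mob2. Mob2 came first with 5020, and hpo followed with 235, trc with 162, sav with 123, Mob4 with 112, mats with 106 and fry with 48.1 in the pooled list. Mob3, wts and yki had no candidate there in the pooled list. Mob2 exceeded hpo 21.3-fold in the pooled list, 19.6-fold in replicate 1 and 22.8-fold in replicate 2. From hpo to mats, each step was 1.45-fold or less in the pooled list, below the replicate error of 1.49-fold. That error is a spread between replicates and not the error of a ratio between different summits, so the order was not tested. The signal of hpo was above that of trc by 1.51-fold in replicate 1 and 1.43-fold in replicate 2. That of Mob4 was above that of mats by 1.17-fold and 1.10-fold in the same order. Between trc and sav the replicates went opposite ways, with ratios of 0.981 in replicate 1 and 3.0 in replicate 2. The same was seen between sav and Mob4, with 2.24 in replicate 1 and 0.352 in replicate 2. The step from mats to fry was 2.21-fold in the pooled list, 1.02-fold in replicate 1 and 3.31-fold in replicate 2.

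**Figure D3:**
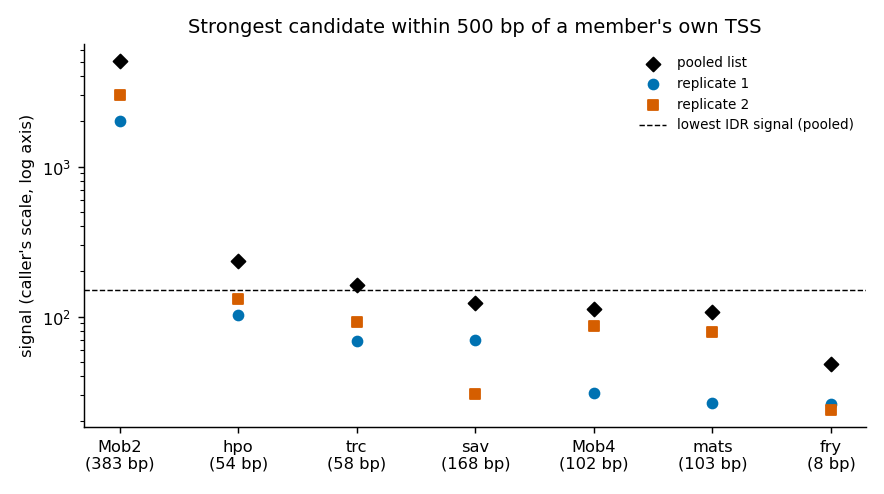
Signal (log axis, caller's scale) of the strongest candidate within 500 bp of a gene's own start sites, in the pooled list (diamonds), replicate 1 (circles) and replicate 2 (squares), with its distance to the start site under the gene's name. The dashed line is the lowest IDR signal of 149.7 in the pooled list. Mob2 lies above the others in all 3 lists, with hpo next in each. The order of trc, sav, Mob4 and mats differs between the replicates.

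Set against the other Mob genes and the kinases as a whole, the Mob2 peak depended on where the partner peak was allowed to lie. Among summits inside the other genes the strongest was that of wts at 267, and Mob2 was 18.8-fold higher in the pooled list, 16.7-fold in replicate 1 and 20.8-fold in replicate 2. Across the full windows the strongest was the summit of 2302 beside Oseg6, and Mob2 was 2.18-fold higher in the pooled list, 1.68-fold in replicate 1 and 2.70-fold in replicate 2. The highest signal within 10000 bp was below that of Mob2 at 99.97% of all protein-coding genes and below that of hpo at 99.3%. The same share was 76.5% for wts, 70.4% for yki, 54.7% for sav, 45.3% for trc, 44.8% for fry, 32.0% for Mob4 and 31.1% for mats.

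An IDR summit lay within 10000 bp of 8 of the 10 genes, all but mats and Mob4, against 57.9% of all protein-coding genes. Within 500 bp of an own start site, 3 of 10 had one (Mob2, trc and hpo), against 17.0%. Inside the gene, 3 of 10 had one (Mob2, fry and wts), against 13.0%. With 10 genes, 1 gene more or fewer moves a share by 10 points, and Mob2, for which the set was chosen, is in each count. When the 4105 strongest candidates of a single replicate stood in for the IDR list, trc and fry had no summit within 10000 bp on replicate 1 alone. On replicate 2 alone sav had none and Mob4 had one. The genes with a promoter summit were then Mob2, hpo and yki on replicate 1 and Mob2, Mob4, trc and hpo on replicate 2. Mob2, fry and wts were also the 3 longest genes of the set, at 39477, 47270 and 16995 bp, against a median gene length of 2164.5 bp. Over the windows, IDR summits occurred 0.687 times per 10000 bp, against 0.307 over the genome. The windows lie around genes and include that of Mob2, while the genome value also covers sequence far from genes. The density over the windows of all protein-coding genes was not computed.

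Most of the IDR summits near these genes were closer to another gene. The nearest start site belonged to a neighbour for 15 of the 22 and to the gene itself for 7, of which 3 were of Mob2, 2 of wts, 1 of trc and 1 of hpo. Of those 15, 11 lay within 500 bp of the neighbour's start. Neither count was made over the windows of all protein-coding genes, so neither can be called particular to this set. In all, 14 of the 22 lay within 500 bp of some protein-coding start site, against 50.5% of all IDR summits. By feature, 11 were in introns, 6 between genes, 4 in a 5′ UTR and 1 in an exon of a non-coding RNA. The share in introns was 50% against 47.6% of all IDR summits. The median signal of the 22 was 236, near the 233 of all IDR summits. The GC content of the 101 bp around the summit had a median of 45.5% and ran from 20.8% to 57.4%, against a median of 39.6% over all IDR summits.

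The replicates gave 20 of the 22 IDR summits in both lists (90.9%), against 95.1% of all IDR summits. Of all 122 candidates, 68 were in both (55.7%), against 45.5% of all pooled candidates. The IDR list was itself made by agreement between replicates, so the first share is no independent check. The 2 summits not matched were the one beside CG7394 in the Mob2 window, with no replicate 2 summit within 100 bp, and 1 of the zfh1 pair in the wts window, with none in replicate 1. Over the 20 matched summits the median log2 ratio of replicate 2 to replicate 1 was 0.30. It was higher in replicate 2 for 14 and in replicate 1 for 6, against 54.6% of all matched IDR summits higher in replicate 2. The ratios ran from -1.44 SD, at sav beside p53, to 1.97 SD, at Mob2 11557423, and 14 of 20 were within 1 SD, against 73.4% of all.

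**Figure D4:**
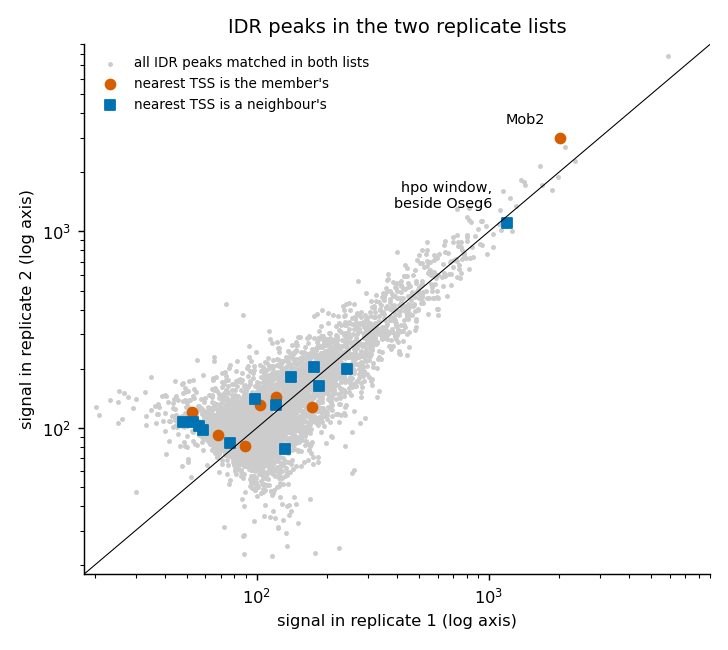
Signal in replicate 2 against signal in replicate 1 (both log axes, caller's scale) for the 3902 IDR summits matched in both lists (grey) and the 20 matched summits near the 10 genes, as orange circles where the nearest start site is the gene's own and blue squares where it is a neighbour's. The line marks equal signal. The Mob2 peak (2016 and 2991) and the peak beside Oseg6 (1196 and 1107) stand at the upper end, and the rest lie within the grey cloud.

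Of 9 sequence words searched on both strands, up to 50 bp from each summit, each Snail-family word was found at 4 or 5 of the 22 IDR summits. These shares are larger than over all IDR summits, but rest on few summits and were not tested. CAGGTG was found at 4 (9.87% of all IDR summits and 5.91% of pooled candidates), namely both hpo summits, the fry summit and the zfh1 summit at 30782042. ACAGGT was found at 5 (9.48% of all) and AACAGG at 4 (9.99%), and these words overlap CAGGTG in the longer site. CACTTG was found at 2, fry and the main Mob2 peak (10.5% of all). ATCGAT was found at 5 (4.17% of all), among them trc, p53 in the sav window, RpL12 and RpL39. GAGAGA was found at 4 (7.87% of all), of which 3 were in Mob2 and 1 was the wts summit at 30805950. TATTTA was found at 4 (23.9% of all). CAGGTA, the word of the embryonic activator Zelda, and GGAATG, that of Scalloped, were found at none, against 2.87% and 2.80% of all IDR summits. None of the 5 IDR summits of the Mob2 window held CAGGTG within 50 bp. A word is only a match of letters and not a measured binding site.

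The rest of the pathway was described from 4 lists written down by name. Of 19 upstream regulators of Hippo, 16 (84.2%, against 57.9% of all protein-coding genes) had an IDR summit within 10000 bp and 7 (36.8%, against 17.0%) within 500 bp of a start site. Their median length was 17475 bp, and longer genes have wider windows. The strongest promoter summit was that of Sik3, a salt-inducible kinase gene, with 575 in the pooled list, 298 in replicate 1 and 280 in replicate 2. Mer and ex, whose products act together with Kibra at the membrane, had 275 and 267 in the pooled list. The replicates had 122 and 148.9 at Mer and 113 and 150 at ex. The summit of app, a palmitoyltransferase gene of the Fat branch, had 265, 150 and 109, and is shared with CG32100. The pooled values of Mer, ex and app lay within 1.49-fold, the replicate error, of the hpo promoter's 235. That error is not the error of a ratio between different summits, so these differences were not tested. In replicate 2 app was below hpo.

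Among 8 STRIPAK partners of Mob4, 6 (75%, against 57.9% of all protein-coding genes) had an IDR summit within 10000 bp and 1 (12.5%, against 17.0%) at a start site. That was mts, the gene of a catalytic phosphatase subunit, with 432 in the pooled list, 166 in replicate 1 and 270 in replicate 2, at a summit 403 bp from mts and shared with Rack1. Of the 6 nuclear partners of Yki, all 6 had an IDR summit within 10000 bp and 3 (50%, against 17.0%) at a start site. These were Wbp2 with 513, mask with 301 and Hipk with 161 in the pooled list. The replicates had 263 and 251 at Wbp2, 165 and 138 at mask, and 61.8 and 112 at Hipk. The Wbp2 summit is shared with CG10948 and the Hipk summit with Cypl. sd, which encodes Scalloped, had a promoter candidate of 118, below the threshold.

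Of 9 protein-coding genes reported as targets of Yki, 4 (44.4%, against 57.9% of all protein-coding genes) had an IDR summit within 10000 bp and 1 (11.1%, against 17.0%) at a start site. That gene was E2f1, a cell cycle transcription factor gene, with 261 in the pooled list, 105 in replicate 1 and 162 in replicate 2. Diap1, the apoptosis inhibitor gene, and CycE, the cyclin E gene, had promoter candidates of 128 and 104, below the threshold, but IDR summits elsewhere in the gene. CycE held 3 of these, the strongest at 1012, and Diap1 held 1, at 406. The non-coding mir-ban, the bantam microRNA, had 8 IDR summits within 10000 bp, the strongest at 391. The median of the highest promoter signal was 79.8 for the upstream regulators, 67.0 for the STRIPAK partners, 142 for the nuclear partners and 104 for the targets, against 39.7 for all protein-coding genes. The lists differ from all genes in length, and no test was made between them.

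**Figure D5:**
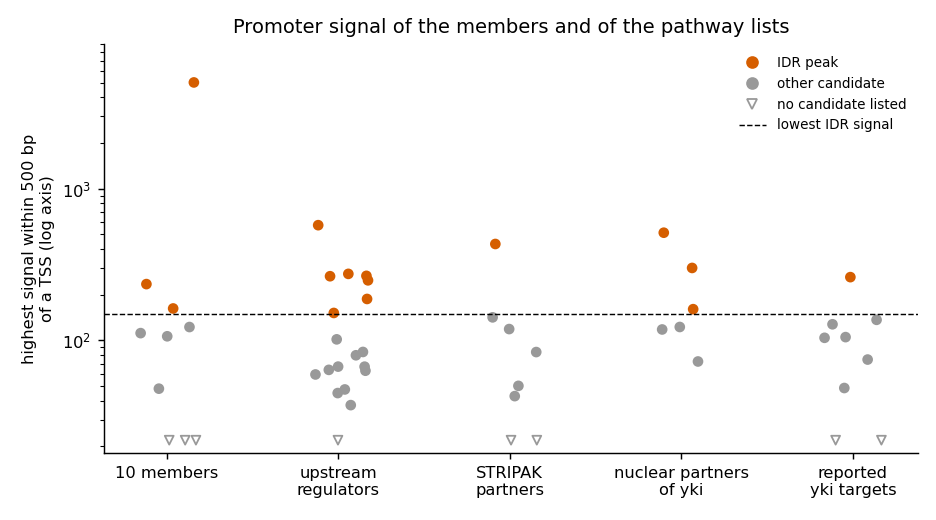
Highest pooled signal within 500 bp of a start site (log axis, caller's scale) for the 10 genes and for the protein-coding genes of the 4 pathway lists. Orange points are IDR summits, grey points other candidates, open triangles genes with no listed candidate, drawn at the foot of the axis, and the dashed line is the lowest IDR signal of 149.7. Mob2 at 5020 is the highest point, and the highest of the lists is Sik3 at 575.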

How the data were processed

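The authors deposited peak lists in dm6, 1 candidate list per replicate, 1 called on both replicates together and 1 kept by IDR, all set against 1 control alignment, per the deposited file listing. The deposited signal is the caller's value per peak, whose scaling is not stated. The −log10 q value that the authors deposited stood at its top value for all IDR peaks and was not used. How reads were aligned and peaks called, with which tools, is not given in the sources used here. Read depth is unknown, so no counting interval was given, and the 2 replicates, called biological in the labels, set the precision.

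Coordinates are 1-based. Genes came from Ensembl release 115 and sequence from assembly Release 6, and 0 peaks ended beyond their chromosome. A promoter was the 500 bp on either side of any protein-coding start site. Summits within 100 bp were matched. Analysis used Python 3.11.15, pandas 2.3.3 and numpy 2.4.6, and the matching was tested on simulated data. With 1 group, no test was made.

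The 10 genes and the pathway lists were chosen with earlier results of these data known. All 10 genes were named with their IDR summits and strongest candidates, and from each pathway list up to 4 genes with the strongest IDR promoter peak. sd, Diap1, CycE and mir-ban were named after their values were seen. The listed symbol d was read as dachs. Alternatives changed the window, promoter, start site, threshold, matching distance and word distance, and left out each replicate. The values of 1 neighbouring summit of the Mob3 window are not reported here, and the summit stays in the counts.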

Additional observations from a re-analysis of the deposited data

How the results depend on the processing

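Of 31 alternative settings over all results, 25 left the value within a set limit and 6 moved it. The limit was 1.5 times for counts and the SD of 0.57 for the log2 replicate ratio. For the Mob2 ratio it was the SD of that ratio's values in the 2 replicates. Leaving out a replicate is therefore hardly a test of the Mob2 ratio, because the same values set its limit. Counting only the gene body, without 10000 bp on either side, gave 7 IDR summits in place of 22, 3 genes with one in place of 8, and a ratio of the Mob2 peak to the strongest other peak of 18.8 in place of 2.18, since the peak beside Oseg6 is then left out. Keeping only the 2052 strongest IDR peaks gave 12 summits and 5 genes (Mob2, Mob3, wts, hpo and yki). The genes with a promoter summit were then 2, Mob2 and hpo, without trc. A promoter of 1000 bp gave 5 genes with an IDR promoter summit in place of 3, adding wts and yki, while one of 250 bp gave 2, trc and hpo, without Mob2. With the 5′-most start site alone, the 3 genes were the same, Mob2 through its weaker summit of 215.

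Leaving out each replicate, with the 4105 strongest candidates of the other in place of the IDR list, gave 18 to 22 summits, 6 to 8 genes with one, 3 to 4 genes with a promoter summit and a Mob2 ratio of 1.68 to 2.70. Without replicate 1, Mob4 gained a promoter summit and sav lost its summit. Without replicate 2, trc and fry lost theirs and yki gained a promoter summit. Matching within 50 bp or 200 bp gave 50 or 81 candidates in both replicates in place of 68. No paired analysis was possible because there is 1 group. Depth is unknown, so a gene without a listed candidate may still have weak binding below the lists.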
